A study of Mus musculus with 10 samples.

Results

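Sites occupied by RelA after 3 h of lipopolysaccharide (LPS) were compared between macrophages that had received dexamethasone (Dex) beforehand and macrophages that had not. The members are the enriched regions of 2 deposited lists, 1 per library, less every region that shared 1 bp or more with a region of the input DNA list. That left 4972 regions without Dex and 33 after Dex pretreatment, 5005 of the 115077 regions in the 10 lists of the series. Macrophages were grown from bone marrow of C57BL/6J mice. The library without Dex came from cells given LPS for 3 h. The pretreated library came from cells given Dex 3 h before LPS and then LPS for 3 h. Input DNA came from untreated cells. The other RelA lists used for description are those of resting cells (0 h of LPS), Dex given 3 h ahead with 0 h of LPS (called Dex alone here), 8 h of LPS, 8 h of LPS after Dex pretreatment, and 8 h of LPS under late Dex, whose hour the labels do not give. Lists of the glucocorticoid receptor (GR) came from cells given Dex and from cells given LPS and Dex. Each condition is 1 library, so no test between conditions was possible. The labels give no count of mice and no strain other than C57BL/6J. A region list holds no marker level, so the cell type could not be checked from it.

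RelA, also called p65, is the subunit of NF-κB that carries a transactivation domain. In resting macrophages it is held in the cytoplasm by inhibitor proteins of the IκB family. LPS, sensed by Toll-like receptor 4, leads to breakdown of these inhibitors, and RelA then enters the nucleus and binds enhancers and promoters of inflammatory genes. Dex is a synthetic glucocorticoid that activates GR, a nuclear receptor which binds DNA itself or is held at DNA through other factors, NF-κB among them.

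Very few of the 3 h RelA regions without Dex were called in the library pretreated with Dex. Of the 4972 regions without Dex, 12 were also called in the pretreated library and 4960 were not. The called share was 0.241% (Wilson 95% interval 0.138 to 0.421, which covers counting error only). Seen from the pretreated list, 12 of 33 regions, 36.4% (22.2 to 53.4), were called without Dex, 8 (24.2%) at 0 h and 7 (21.2%) with Dex alone. The lists overlapped at the stronger end. Strength here is the highest tag density of a region, a signal value on the authors' scale whose normalization is not stated. The 12 regions had densities without Dex from 29.5 to 171 with a median of 89.8, against a median of 18.5 over the 4960 others. In such a bulk assay, fewer cells with RelA at a site and less RelA at the site in every cell cannot be told apart.

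The share called after Dex fell with rank in the list without Dex. Among ranks 1 to 10 it was 4 of 10, with an interval of 16.8 to 68.7%. Among ranks 11 to 25, 2 of 15 regions were called, and among ranks 26 to 50, 2 of 25. Ranks 51 to 100 held 2 of 50, and the next 150 regions held 1. A further 750 regions down to rank 1000 held 1, and the last 3972 regions, with densities of 27.996 or less, held 0. When 50% mutual overlap was demanded instead of 1 bp, the 8 called regions among ranks 1 to 50 became 1 and the 12 in all became 3. A stretch after Dex less than 50% as wide as the region without Dex cannot meet that demand. The 3 that met it, at ranks 25, 98 and 883, had stretches after Dex 59.2, 65.4 and 56.8% as wide. With centres within 250 bp demanded instead, all 12 stayed. A high rank did not by itself go with a call: 102 regions without a call ranked above the region at rank 113, the lowest of the 11 called regions with a density of 50 or more.

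**Figure D1:**
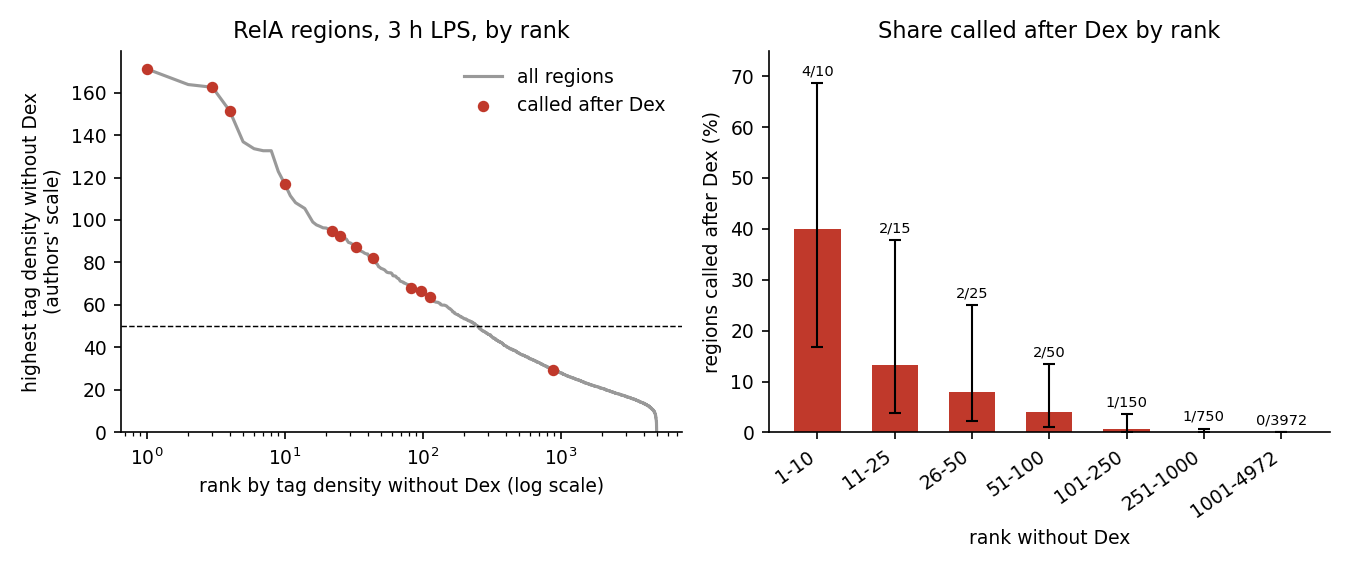
Left, highest tag density without Dex (vertical axis, authors' scale) against rank in the 3 h list without Dex (log axis); the grey line is all 4972 regions, red points are the 12 called after Dex, and the dashed line marks a density of 50. Right, percent of regions called after Dex by rank, bars with Wilson 95% intervals and counts; the share goes from 4 of 10 at the top to 0 of 3972 at the bottom.

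The region at rank 1, chr10:18734572-18735829 (mm9, as for every position here), had the highest density outside input in both 3 h libraries. Its tag density was 31.9 at 0 h, 23.7 with Dex alone, 171 at 3 h, 25.7 at 3 h after Dex, 142 at 8 h and 55.5 at 8 h under late Dex. It was not called at 8 h after pretreatment. Its level after Dex and LPS thus lay between those of Dex alone and of resting cells.

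At rank 3, chr2:167602606-167603704 had a density of 25.01 at 0 h, 19.9 with Dex alone, 162 at 3 h, 17.9 at 3 h after Dex, 90.7 at 8 h and 43.3 under late Dex. At rank 4, chr10:77597384-77599198 had 19.4 at 0 h, 20.3 with Dex alone, 151 at 3 h, 13.5 at 3 h after Dex, 89.1 at 8 h and 23.9 under late Dex. Both stood lower after Dex and LPS than in either library without LPS. The called stretch of the rank 4 region shrank from 1814 bp to the smallest width in the list.

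Among the next ranks, 4 more regions were called in resting cells. At rank 22, chr3:78976843-78978080 had a density of 21.8 at 0 h, 24.5 with Dex alone, 94.7 at 3 h, 19.9 at 3 h after Dex, 100.8 at 8 h and 32.9 under late Dex. At rank 25, chr6:48779399-48780256 had 38.8 at 0 h, 25.04 with Dex alone, 92.3 at 3 h, 19.6 at 3 h after Dex, 60.1 at 8 h and 16.6 under late Dex. This was the highest resting value among the 12, and the increase from 0 h to 3 h without Dex was the smallest at 2.38-fold. At rank 33, chr3:131360829-131361842 had 25.99 at 0 h, 20.9 with Dex alone, 87.3 at 3 h, 18.9 at 3 h after Dex, 75.8 at 8 h and 30.6 under late Dex. At rank 44, chr1:133173183-133174078 had 14.2 at 0 h, 21.996 with Dex alone, 81.9 at 3 h, 21.0 at 3 h after Dex, 47.8 at 8 h and 16.8 under late Dex. It alone of these 4 was higher at 3 h after Dex than at 0 h without Dex.

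The other 5 regions were called neither at 0 h nor with Dex alone. At rank 10, chr19:6945023-6946053 had a density of 117 at 3 h, 16.6 at 3 h after Dex, 132 at 8 h, 20.1 at 8 h after pretreatment and 46.2 under late Dex. It was the only region of the 12 called in both pretreated LPS libraries. At rank 83, chr1:153500388-153501169 had 68.1 at 3 h, 20.3 at 3 h after Dex, 54.6 at 8 h and 21.0 under late Dex. At rank 98, chr8:93605681-93606415 had 66.4 at 3 h, 18.9 at 3 h after Dex, 59.0 at 8 h and 41.4 under late Dex. At rank 113, chr10:127105529-127106416 had 63.6 at 3 h, 17.2 at 3 h after Dex, 49.5 at 8 h and 26.5 under late Dex. In these last 3 the value after Dex was a larger fraction of that without than in any called region of higher rank. Values after Dex span only 12.2 to 25.7 over the 12, so this fraction tends to rise as the density without Dex falls. At rank 883, chr17:7603083-7603902 had 29.5 at 3 h, 12.2 at 3 h after Dex and 33.2 at 8 h, and it was not called under late Dex. It was the only called region with a density under 50 without Dex, and 1 neighbouring region lay 60 bp away.

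The range of levels after Dex was narrow beside that without. Across the 12 regions the density ran from 12.2 to 25.7 after Dex and from 29.5 to 171 without, so no region's value after Dex reached the lowest value without. The value after Dex was 8.93 to 41.3% of that without, with a median of 21.4%, a 2.42-fold to 11.2-fold lower density on the deposited scale. Spearman's rho between the densities without and after Dex was 0.20 over the 12 regions, which share their libraries; regions that fell below the calling bound are missing from it. Called stretches were narrower as well: the region after Dex was 13.8 to 65.4% as wide as without, with a median of 42.1%.

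In the 7 regions called in resting cells, LPS without Dex and LPS after Dex could be set against the matched library without LPS. Without Dex the density at 3 h was 2.38 to 7.80 times that at 0 h, with a median of 5.37. After Dex the density at 3 h of LPS was 0.67 to 1.08 times that of Dex alone, with a median of 0.90. Of the 7 regions 1, that of rank 1, was above Dex alone. A further 20 strong regions and 3 weaker ones were called with Dex alone and not after Dex and LPS. They give no ratio, so low ratios may be missing from this range. No ratio is tested, since each comes from 1 library over 1 library with unknown scaling.

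**Figure D2:**
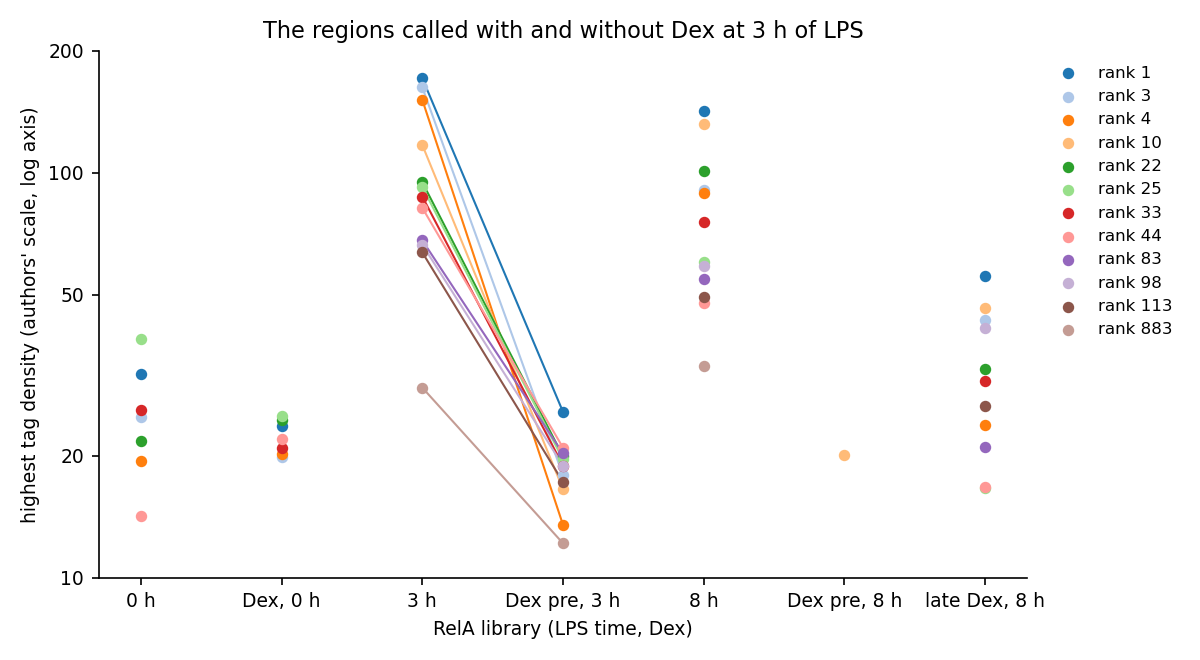
Highest tag density (authors' scale, log axis) of the 12 regions called in both 3 h libraries, in each of the 7 RelA libraries; a missing point is a region not called there, and lines join the 3 h values without and after Dex. All 12 values after Dex lie between 12.2 and 25.7, beside 14.2 to 38.8 at 0 h and 19.9 to 25.04 with Dex alone.

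Regions that overlap input DNA, left out of the comparison above, gave a view of how the libraries compare where signal is also present without precipitation. This view was chosen after the values had been seen. The list without Dex held 45 such regions of 5017, and the pretreated list 51 of 84. Of the 45, 18 were called after Dex. In 16 input regions both libraries had a called region, and the density after Dex was 112.5% of that without at the median (quartiles 79.7 and 129%, range 41.4 to 557%). Median densities there were 25.3 without Dex and 23.6 after Dex. The strongest of the 16, on chromosome 17 from 39979704 to 39985930, reached 128 without Dex and 133 after it. The other 27 of the 45 were not called after Dex, and the 16 are those called in both libraries. The part of sequencing depth in the comparison was not tested, as the labels give no read totals. The lists also began at different scores, 8.88 without Dex and 9.75 after Dex.

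**Figure D3:**
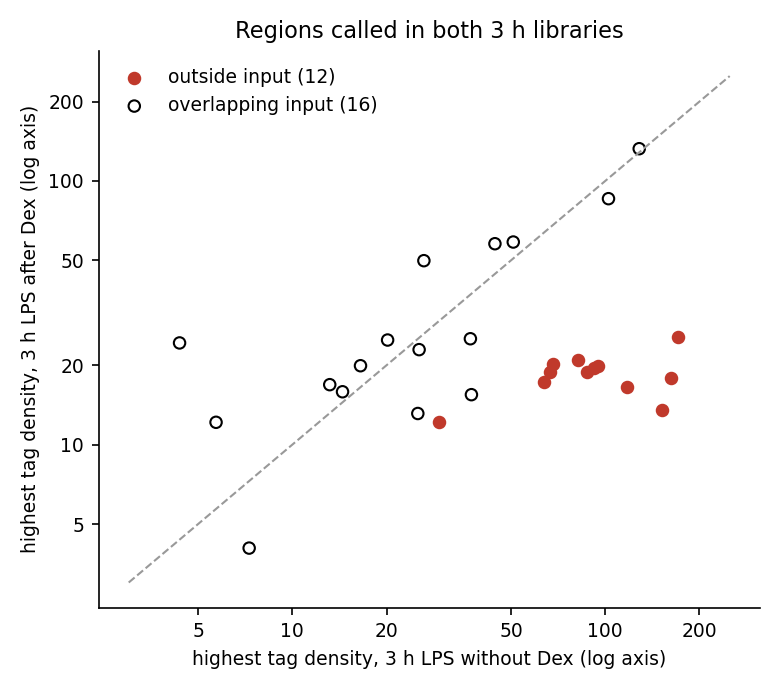
Highest tag density at 3 h of LPS after Dex (vertical) against without Dex (horizontal), both log axes on the authors' scale, for the 12 regions outside input called in both libraries (red) and the 16 input regions met by both (open circles); the dashed line marks equal values. Open circles scatter about the line with a median of 112.5%, and every red point lies under it at 8.93 to 41.3%. Of the open circles 3 had a density of 50 or more without Dex, and of the red points 11 did.

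Strong regions are those with a density of 50 or more without Dex. After Dex pretreatment 240 of them were not called, 95.6%, and 11 were called, 4.38% (2.46 to 7.68). The share not called was 99.8% over all 4972 regions. Members just inside the bound had densities of 50.1, 50.0 and 50.0, and those just outside 49.9, 49.9 and 49.6; none of these 6 was called after Dex.

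Some of the strongest regions not called after Dex had been called without LPS. The region at rank 2, chr17:13202574-13203628, had a density of 37.6 at 0 h, 27.6 with Dex alone, 164 at 3 h, 132 at 8 h and 74.4 under late Dex. Its neighbours in rank, 1 and 3, were both called after Dex, although its resting level was above theirs. The region at rank 5, chr2:167579186-167580092, was not called at 0 h but had 30.6 with Dex alone, 137 at 3 h, 84.5 at 8 h and 51.6 under late Dex. At rank 6, chr17:18037460-18038460 had 25.1 at 0 h, 24.9 with Dex alone, 134 at 3 h, 160.4 at 8 h and 61.1 under late Dex. At rank 14, chr15:6518733-6519830 had 25.01 at 0 h, 20.9 with Dex alone, 105 at 3 h, 148 at 8 h and 42.6 under late Dex. At rank 23, chr10:74789177-74790105 had 26.97 at 0 h, 19.9 with Dex alone, 94.7 at 3 h, 98.5 at 8 h and 32.4 under late Dex. These 5 were thus called with Dex alone and not called once LPS followed Dex. The region at rank 9, chr11:59354491-59356649, and that at rank 13, chr10:37057707-37058936, were called at 0 h (17.7 and 18.1) and not with Dex alone, and had 123 and 107 at 3 h.

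The others among the 20 strongest regions not called after Dex were not called without LPS. At rank 7, chr19:22022084-22023086 had a density of 133 at 3 h, 24.1 at 8 h and 45.7 under late Dex, and at rank 12, chr17:26671788-26672874 had 108, 21.2 and 28.2. In both regions the 8 h library under late Dex stood above that without Dex. At rank 8, chr11:117807380-117808507 had 133 at 3 h, 122 at 8 h and 40.8 under late Dex. Also on chromosome 11, chr11:117838947-117839731 at rank 19 had 96.3, 90.5 and 21.0. At rank 11, chr17:29531743-29533017 had 111, 95.2 and 21.6. At rank 15, chr5:65225212-65226166 had 102, 93.4 and 37.8. In these 4 the density under late Dex was below both values without Dex. At rank 17, chr11:83462277-83463425 had 97.7 at 3 h, 89.3 at 8 h and 25.2 under late Dex. At rank 20, chr6:134650462-134651470 had 96.2, 109.7 and 25.6. At rank 21, chr16:24669470-24670439 had 95.5, 95.03 and 38.0. At rank 24, chr2:153023881-153024993 had 94.0, 83.4 and 29.6, and at rank 26, chr18:61234028-61234934 had 91.3, 94.3 and 36.4. Only 2 of the 20 were not called under late Dex: rank 16, chr12:120386044-120387004, with 99.0 at 3 h and 27.98 at 8 h, and rank 18, chr3:142159405-142161024, with 97.0 and 43.9.

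Most strong regions absent from the pretreated list were called again at 8 h without Dex. Of the 240, 224 were called at 8 h, 93.3% (89.4 to 95.9), against 31.3% of all 3 h regions. Their density at 8 h was 83.1% of that at 3 h at the median (quartiles 64.0 and 106%). With late Dex 113 of the 240 were called, 47.1% (40.9 to 53.4), against 4.24% of all 3 h regions, and their density was 38.3% of the 3 h value without Dex (31.5 and 45.8%). The share called under late Dex was 35 of 42 among ranks 1 to 50, 27 of 48 among ranks 51 to 100 and 51 of 150 below. At 8 h after pretreatment 0 of the 240 were called, against 0.0805% of all 3 h regions. The 11 strong regions called after pretreatment were all called at 8 h and under late Dex, with densities of 80.2% and 32.4% of the 3 h value at the median. By call pattern, 107 of the 240 were called at 8 h and neither at 0 h nor under late Dex. A further 96 were called at 8 h and under late Dex and not at 0 h, and 14 in none of the 3 lists.

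Strong regions called and not called after Dex differed in how often they were called without LPS. Of the 11 called regions 7 were also called at 0 h, 63.6% (35.4 to 84.8), and of the 240 others 21 were, 8.75% (5.79 to 13.0), against 0.744% of all 3 h regions. With Dex alone the counts were 7 of 11 and 20 of 240, 8.33% (5.46 to 12.5), against 0.603% of all. Among the 102 regions not called after Dex that rank 113 or better, 14 were called at 0 h, 13.7% (8.36 to 21.7), and 16 with Dex alone, 15.7% (9.89 to 24.0). The 7 called regions with a call at 0 h all rank 44 or better. Of the 42 regions not called among ranks 1 to 50, 11 were called at 0 h and 11 with Dex alone, 26.2% each (15.3 to 41.1). Of the 48 among ranks 51 to 100 the counts were 2 and 4. Calls without LPS were thus more frequent at high rank. Among ranks 1 to 50, 7 of the 8 regions called after Dex had a call at 0 h, beside 11 of the 42 not called. The contrast was therefore also present within these ranks. Under late Dex 66 of these 102 were called, 64.7%, against 11 of the 11. Read the other way, 7 of the 17 strong regions called both at 0 h and with Dex alone were called after Dex and LPS, 41.2% (21.6 to 64.0), and 4 of the 213 called in neither were, 1.88% (0.73 to 4.73). A further 11 strong regions were called at 0 h and not with Dex alone, and 10 with Dex alone and not at 0 h. None of these was called after Dex and LPS. The share over all 4972 regions was 0.241%, and the shares here are not matched on rank. The level with Dex alone did not separate regions called after Dex and LPS from those not called. It was 19.9 to 25.04 (median 21.996) in the 7 regions called after Dex and LPS, and 15.9 to 30.6 (median 21.5) in the 20 that were not. Regions are not replicates of a condition, so these shares carry no test.

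**Figure D4:**
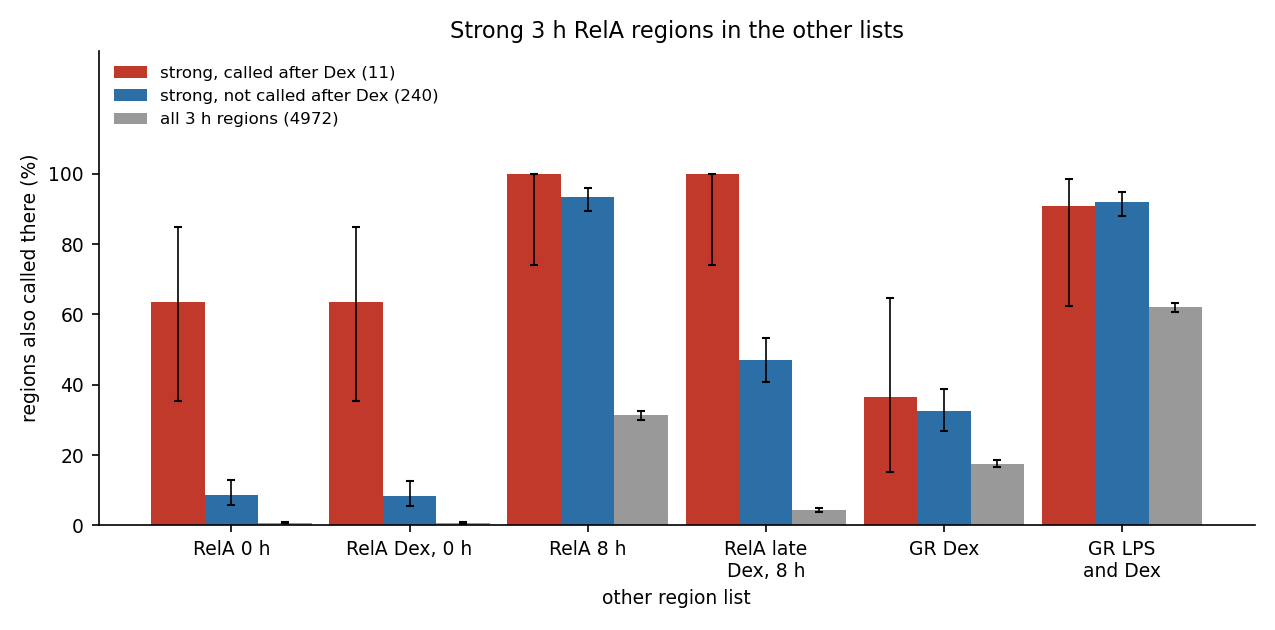
Percent of strong 3 h RelA regions also called in 6 other lists, for the 11 called after Dex pretreatment (red), the 240 not called (blue) and all 4972 regions (grey), with Wilson 95% intervals for counting error. No share here is matched on rank. Red and blue stand apart at 0 h and Dex alone (63.6% against 8.75% and 8.33%) and under late Dex (11 of 11 against 47.1%). They lie close for GR of LPS and Dex (90.9% and 92.1%).

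GR was found at most strong RelA regions whether or not they were called after Dex. The GR list of LPS and Dex had a region at 221 of the 240 strong regions not called, 92.1% (88.0 to 94.9), and 10 of the 11 called, 90.9% (62.3 to 98.4), against 62.0% of all 3 h regions. The GR list of Dex without LPS did so at 78 of the 240, 32.5% (26.9 to 38.7), and 4 of the 11, 36.4% (15.2 to 64.6), against 17.5% of all. The intervals are wide for the 11 regions and do not show that the shares are equal. The GR density of LPS and Dex where called was 58.9 at the median of the 221 regions (quartiles 36.2 and 93.9) and 50.5 at that of the 10. At rank 12 the GR density was 746 with LPS and Dex and 346 with Dex, the highest among strong RelA regions in both GR lists. At the region of rank 113, which was called after Dex, neither GR list had a region, and the same held for 19 of the 240. The GR cells were cross-linked by another procedure, and the labels give no times for them.

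Most of the 12 had other RelA regions close by. Within 50 kb of a called region lay 25 other RelA regions of the 3 h list without Dex, and 0 of the 25 were called after Dex, against 0.241% of all 4972 regions. Of the 25, 2 were strong, so this count is near the background and says nothing particular to the neighbours. Around rank 1 there were 4, of which the strongest, chr10:18728803-18729622, had a density of 76.0 at 3 h without Dex, 49.6 at 8 h and 22.7 under late Dex. Around rank 3 there were 6, led by the rank 5 region 22514 bp away. Around rank 4 there were 4, led by chr10:77599710-77600382 with 31.7, and around rank 10 there were 3, led by chr19:6951171-6951973 with 34.7. The regions of ranks 33 and 44 had no neighbour within 50 kb, and the other 6 had 1 or 2 each, of which the strongest was chr3:79000714-79001509 with 38.9.

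The 21 regions of the pretreated list that were not called without Dex were weaker than the 12 after Dex. Their densities after Dex ran from 4.06 to 18.6 with a median of 6.42, against 12.2 to 25.7 with a median of 18.9 for the 12. Of the 21, 12 had the smallest width in the list, and 5 lay on chromosome X, which held 2.21% of all 3 h regions without Dex, and 1 on chromosome Y. A GR region was met by 5 of the 21 and by 11 of the 12, and 16 of the 21 met no region of any other ChIP list. The 12 were chosen by their overlap with a RelA list, so no such share is compared for RelA. That choice also bears on GR. The GR list of LPS and Dex met 62.0% of all 3 h regions without Dex. It met 92.0% of the strong ones, to which 11 of the 12 belong. The GR counts of the 12 and the 21 therefore cannot be set against each other. The highest density was 18.6 at chr1:85095630-85096020, which was called in no other list. At chr13:113368385-113368636 it was 14.2, with a GR region of Dex. The next, chrX:122525862-122526237, had 11.5 after Dex and 7.12 at 0 h, and was met by both GR lists. At chr2:90124474-90124855 and chr2:166360634-166360885 the density was 11.2 each, and no other list had a region there.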

How the data were processed

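The members and lists were chosen with earlier results of these data known. Per the submitters' processing notes, CASAVA handled the reads and the build was mm9. How regions were called, at which threshold, and whether duplicates were removed is not stated in the sources at hand. Per the labels' protocols, RelA chromatin was cross-linked with 1% formaldehyde for 10 min, and GR chromatin first with 2 mM disuccinimidyl glutarate for 30 min. The authors deposited 1 list per library. Per the file headers each region carries its highest and mean tag density (signal values). It also carries, per the file headers, a z-score, used here as a score, and a p-value as deposited, which was left unused. No fold or p was computed by a model.

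Regions were overlapped at 1 bp or more with Python 3.11.15, pandas 2.3.3 and NumPy 2.4.6, after regions meeting the input list were left out; the overlap step was tested on simulated data. Width is end minus start. Where several regions met a member, the highest density was taken. Intervals are Wilson 95% (SciPy 1.17.1). Regions named are the 12 called in both lists, the 20 strongest not called after Dex, 3 on each side of the bound of 50, the 5 strongest of the pretreated list alone, and the leading neighbours. Other overlap rules, input handling, score and density bounds and distances were tried. Read totals per library were not at hand, so the depth is unknown. Gene names and sequences were not used here, since the tables at hand are on GRCm38.p6.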

Additional observations from a re-analysis of the deposited data

How the results depend on the processing

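With 1 library per condition, 1 library left out leaves no comparison. No paired analysis was possible because each condition has 1 library. The share of the 4972 regions called after Dex stayed inside its main interval under 6 of 8 alternatives. It was 0.0603% (3 regions) under a demand for 50% mutual overlap, and 0.598% with input-overlapping regions kept. Mutual overlap of 50% cannot be met where the stretch after Dex is less than 50% as wide as without, so this fall goes with the narrower calls. The share of the pretreated list called without Dex also stayed within its interval under 6 of 8, and was 9.09% under 50% mutual overlap and 56.25% with a score of at least 11 in both lists. The number of strong regions not called after Dex stayed within 1.5 times 240 under 10 of 14 alternatives. By construction it moved with the bound: 842 at a density of 30 or more, 405 at 40, 51 at 75 and 11 at 100, where 4 of 15 regions were called. Over all 14 the share not called was 73.3 to 99.2%. Of the 50 top-ranked regions 8 were called after Dex, 7 when ranked by score, and 1 under 50% mutual overlap. Under 50% mutual overlap, 85.4% of strong regions not called after Dex met the GR list of LPS and Dex, beside 92.1% at 1 bp. The shares of strong regions called after Dex and of all 3 h regions were not taken under that rule. Within 10 kb of the 12 there were 7 neighbours and within 100 kb 35, none called after Dex. Unknown depth and the lack of replicates limit every comparison.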

Other observations

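Of all strong regions, 124 were called at 8 h under late Dex, 49.4%, against 4.24% of all 3 h regions. At 8 h after pretreatment 1 strong region was called, 0.398%, against 0.0805% of all. Outside input, the 8 h list under late Dex held 225 regions and the 8 h list after pretreatment 15. Fewer calls after pretreatment than under late Dex were thus not particular to strong regions. Among the 240 not called at 3 h after pretreatment, 113 were called under late Dex. In 111 of these the 8 h library without Dex also had a region, and the density under late Dex was lower in 104 and higher in 7. These 7, picked after their values were seen, had GR densities of LPS and Dex from 116 to 746. The median was 58.9 over the 221 strong regions not called after pretreatment that met such GR. GR was not summarised for the 104, and some of them lay in the same range. At chr18:78096944-78097798 GR was 211, with RelA of 28.3 under late Dex and 35.2 at 8 h. The 7 also had low RelA densities at 8 h, 19.5 to 32.8. The median over the 224 of the 240 called at 8 h was 53.1. The 7 are those of ranks 7 and 12, described above, and 5 further ones. At chr11:109271538-109272384 the RelA density was 68.6 at 3 h, 19.5 at 8 h and 26.95 under late Dex. At chr16:49839912-49840859 it was 64.9, 30.6 and 31.4, and at chr17:31890076-31891016 it was 59.0, 24.8 and 26.95. At chr2:32243046-32244097 it was 51.8, 25.5 and 33.1, and at chr7:53974822-53975657 it was 50.3, 32.8 and 37.8. A further 2 of the 240, chr1:80599448-80600287 and chr13:42469351-42470251, were called under late Dex and not at 8 h without Dex, and their GR densities of LPS and Dex were 326 and 245. Whether the scaling of the late Dex library moves with these values was not tested.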
